A study of Mus musculus with 3 samples.

Results

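The myosin motor family comprised 39 of the 31053 genes in the count table, chosen by symbol alone: every gene named Myo or Myh followed by a number and at most 1 letter. They fell into 25 unconventional myosins (Myo genes), 3 non-muscle myosin heavy chains (Myh9, Myh10 and Myh14) and 11 muscle myosin heavy chains (the other Myh genes). Single GFP-positive cones had been sorted from the dissociated mouse retina of 3 lines, 1 plate of 96 wells per line: Wildtype (library name Chrnb4-GFP), Cnga3-/- (library name Cnga3-GFP), whose deleted gene encodes a subunit of the cone cyclic nucleotide-gated channel, and Pde6ccpfl1 (library name Pde6c-GFP), which carries the cpfl1 mutation of the cone phosphodiesterase subunit gene Pde6c. All samples were labelled postnatal day 12, and controls and mutants were sorted alike for GFP. The promoter that drives GFP in the mutant lines and the number of animals per plate are not given in the sources used here. There was 1 library per genotype, so no difference below has a replicate check. Intervals are exact 95% intervals that cover counting error only, and the counts need not be independent molecules.

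Myosins are motor proteins that use ATP to move along, or pull on, actin filaments. Conventional myosins (class II) assemble into bipolar filaments that contract: the muscle heavy chains work in sarcomeres and smooth muscle, and the non-muscle heavy chains drive cell shape change, division and nuclear movement. The unconventional myosins do not form such filaments and instead carry cargo, tether membranes or organise actin protrusions. Several, among them Myo7a and Myo3a, are known from photoreceptors and from the hair cells of the inner ear.

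Wells were kept with 500 or more genes counted and a mitochondrial share of counts of 30% or less. This left 52 of 61 Wildtype, 70 of 76 Cnga3-/- and 61 of 71 Pde6ccpfl1 wells, which held 273080, 335499 and 295011 counts. Some properties of the libraries bear on every value below. Cone genes were uneven between the plates. The summed count of 12 cone markers was 53 in Wildtype against 275 in Cnga3-/- and 239 in Pde6ccpfl1, and Opn1sw, Gnat2, Gngt2, Pde6c and Cngb3 were at 0 in Wildtype. Their pooled level per length in Wildtype was 4.65 CPM (counts scaled to a common library size) per kilobase of exon, close to the 4.47 of 1092 olfactory receptor genes, which serve here as the level of genes of another tissue. The part of this difference in the myosin results was not tested. The well names carry the tag P11 for Wildtype, P08 for Cnga3-/- and P10 for Pde6ccpfl1, none of which matches the labelled day 12. The meaning of the tags is not stated, and tag and genotype cannot be told apart. Cnga3 itself had 22 counts in Wildtype against 13 in Cnga3-/- and 3 in Pde6ccpfl1, and since the labels do not say which exons are deleted, these counts do not check the genotype. Among the 43 positions kept in all 3 plates, most genes had their highest count at the same position in every plate. This held for 8 of 11 members with at least 10 counts in each library (72.7%) and for 66.3% of 2778 other genes. Over all kept wells, the top positions of Myo15b, Myo1g and Myo3a were not the same in all plates. In the 11 members the top kept well held a median of 36.4% of the gene's counts in Wildtype against 48.4% in Cnga3-/- and 34.8% in Pde6ccpfl1. Results that rest on such wells are therefore also given without the gene's top position, and at the 43 positions kept in all 3 plates. The top position is that with the most counts over the 3 plates together, and it was left out of every plate.

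The sequences of the muscle heavy chains bear on what their counts can separate. Myh6 (the alpha cardiac heavy chain) and Myh7 (the beta or slow heavy chain) lie next to each other on the minus strand of chromosome 14 (GRCm38, GENCODE M21: Myh6 at chr14:54941921-54966927, Myh7 at chr14:54970684-54994626). Their coding sequences share an identical run of 245 bases, which spans exons 30 and 31 of the Myh6 transcript and exons 32 and 33 of the Myh7 transcript. The stretches printed lie at chr14:54948612-54948745 and chr14:54948307-54948457 for Myh6, and at chr14:54975234-54975367 and chr14:54974927-54975077 for Myh7. The run is printed here in capitals with 20 bases on either side, 5′ to 3′ along the transcripts, because a read that falls inside it cannot be assigned to 1 of the 2 genes.
Myh6: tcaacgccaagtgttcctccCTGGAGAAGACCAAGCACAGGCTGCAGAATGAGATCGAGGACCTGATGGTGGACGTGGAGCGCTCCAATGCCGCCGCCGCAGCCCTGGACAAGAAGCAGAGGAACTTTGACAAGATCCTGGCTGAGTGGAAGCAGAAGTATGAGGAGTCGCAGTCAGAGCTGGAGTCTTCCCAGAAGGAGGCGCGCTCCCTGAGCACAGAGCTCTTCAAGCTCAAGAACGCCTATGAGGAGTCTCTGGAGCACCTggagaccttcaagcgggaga
Myh7: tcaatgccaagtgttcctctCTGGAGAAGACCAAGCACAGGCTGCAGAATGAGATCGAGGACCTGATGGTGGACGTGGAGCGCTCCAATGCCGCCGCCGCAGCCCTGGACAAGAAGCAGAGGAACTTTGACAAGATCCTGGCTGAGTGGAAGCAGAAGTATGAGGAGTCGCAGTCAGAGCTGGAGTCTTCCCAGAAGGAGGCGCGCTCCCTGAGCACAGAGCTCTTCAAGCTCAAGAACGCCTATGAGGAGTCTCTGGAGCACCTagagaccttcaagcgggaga

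Long shared runs were a property of the heavy chains. Among the 55 pairs of muscle heavy chains the longest shared coding run had a median of 38 bases (range 15 to 268, the longest between Myh1 and Myh2), and 20 pairs shared at least 50 bases. Among the 300 pairs of unconventional myosins the median was 14 bases and the longest 35, so no pair reached 50. Myo6 and Myo18a, whose counts peaked at the same plate position (below), illustrate this. Their longest common run has 13 bases, in exon 32 of Myo6 (chr9:80299163-80299215, plus strand) and exon 20 of Myo18a (chr11:77832439-77832491, plus strand). It is shown in capitals with 20 bases on either side.
Myo6: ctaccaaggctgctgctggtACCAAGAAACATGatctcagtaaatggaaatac
Myo18a: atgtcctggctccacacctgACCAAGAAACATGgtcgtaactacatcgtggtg
Counts of muscle heavy chains are thus uncertain for reads that fall inside a long shared run, such as that of Myh6 and Myh7. Only coding sequences were searched, and the share of reads inside such runs was not tested. No pair of unconventional myosins shared 50 bases, though their longest run, 35 bases, was near the median of the muscle pairs.

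Unconventional myosins made up most myosin counts in every library, and 1 gene made up most of these. Of 1955 myosin counts in Wildtype, 86.1% (84.5 to 87.6%) were unconventional, 12.2% (10.8 to 13.7%) muscle and 1.69% (1.16 to 2.36%) non-muscle. In Cnga3-/- the shares of 1348 counts were 88.2%, 8.83% and 2.97%, and in Pde6ccpfl1 those of 1338 counts were 91.03%, 7.47% and 1.49%. Myo6 alone held 69.4% of the myosin counts in Wildtype against 48.0% in Cnga3-/- and 55.8% in Pde6ccpfl1. As a share of all counts, the family held 0.716%, 0.402% and 0.454%. Per length, the unconventional myosins as a class were at 27.7 CPM per kilobase in Wildtype against 15.9 in Cnga3-/- and 18.5 in Pde6ccpfl1. The muscle heavy chains were at 10.97, 4.47 and 4.27. The non-muscle heavy chains, at 3.94, 3.89 and 2.21, had intervals (2.71 to 5.54, 2.78 to 5.30 and 1.35 to 3.42) whose lower bounds were not above the olfactory receptor genes (4.47, 3.60 and 4.14).

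Most members were sparsely counted. A count was found in all 3 libraries for 36 of 39 members, but 16 had under 20 counts in total and 10 had at least 50. The lower bound of the level per length exceeded the olfactory receptor level in all 3 libraries for 8 members: Myo6, Myo15b, Myo1g, Myo3a, Myo7a, Myo18a, Myo19 and Myh6. It did so in some library for 12, the others being Myh7, Myo18b, Myo5c and Myo3b, and for none of the 3 non-muscle heavy chains in any library. The olfactory receptor level is pooled, and single olfactory receptor genes spread widely around it. Their 95th percentile was 11.4, 12.2 and 11.5 CPM per kilobase in Wildtype, Cnga3-/- and Pde6ccpfl1, and their highest gene 1194, 566 and 527. Of the 8 members, Myo18a (6.85, 5.76 and 9.09) and Myo19 (10.8, 8.38 and 10.96) lay below that percentile in every library. Myo15b did so in Wildtype (9.29). The lowest totals were those of Myh4 and Myh13 (0 counts in Wildtype and 1 in either mutant) and Myo1a (1 count, in Pde6ccpfl1). For ratios, a count of 0 was set to a floor of 3 counts. The exact 95% upper bound of a count of 0 in the 273080 counts of Wildtype was 13.5 CPM.

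**Figure D1:**
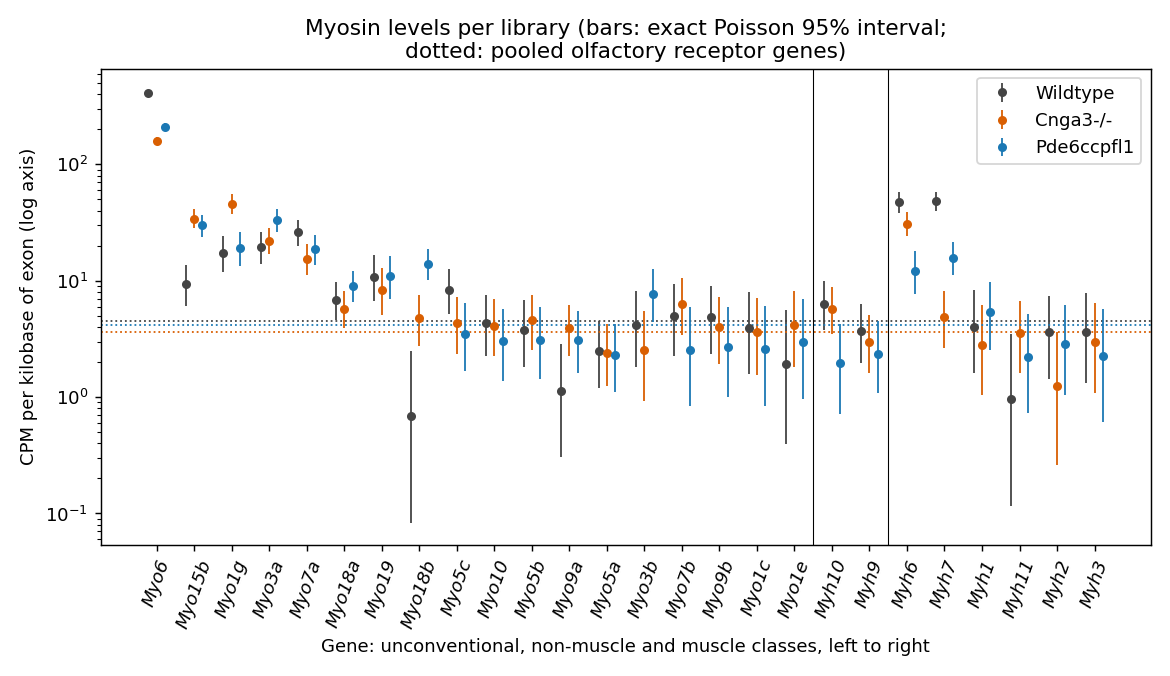
Level of myosins with at least 16 counts in total and a count in every library, in CPM per kilobase of exon on a log axis, for the 3 libraries (1 point per library, exact Poisson 95% intervals for counting error only). Dotted lines are the pooled olfactory receptor genes. Myo6 stands above all other members in each library, and Myh10 and Myh9 lie near the dotted lines.

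Members were compared between 2 libraries where both together held 50 or more counts and 20% or more of the kept wells of either had the gene. For Cnga3-/- over Wildtype, 8 members passed. Of these, 2 were at least 2-fold higher (Myo15b and Myo1g) and 2 at least 2-fold lower (Myo6 and Myh7), where 11.2% and 11.7% of 1723 compared genes were. For Pde6ccpfl1 over Wildtype, 1 of 8 members was 2-fold higher (Myo15b) and 2 lower (Myh6 and Myh7), against 10.2% and 15.2% of 1600 genes. Between the mutants, 2 of 9 were higher in Pde6ccpfl1 (Myh7 and Myo18b) and 2 lower (Myh6 and Myo1g), against 6.44% and 9.33% of 1693 genes. The median log2 ratio of the members was -0.43 for Cnga3-/- over Wildtype (all compared genes -0.32), -0.18 for Pde6ccpfl1 over Wildtype (-0.16) and 0.39 between the mutants (0.07). Without the top positions, 0 members were higher and 3 lower in Cnga3-/-, and 1 and 3 in Pde6ccpfl1, relative to Wildtype, against 9.23% and 20% of all compared genes in Cnga3-/- and 9.75% and 17.2% in Pde6ccpfl1. Between the mutants 3 were then higher in Pde6ccpfl1 and 1 lower, against 11.3% and 7.91%. Counts of 0 to 3 members are too few to read against these shares, and the comparisons share libraries.

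Myo6, the myosin that walks toward the pointed ends of actin filaments and acts in endocytosis and at the base of hair cell bundles, was the most abundant member and was higher in Wildtype than in either mutant. It lies on chromosome 9 (GRCm38, chr9:80165031-80311729, plus strand). It had 1357 counts in Wildtype against 647 in Cnga3-/- and 747 in Pde6ccpfl1, or 411, 160 and 210 CPM per kilobase. The highest level was thus Wildtype and the lowest Cnga3-/-. The log2 ratio of CPM was -1.37 (-1.50 to -1.23) for Cnga3-/- over Wildtype and -0.97 (-1.10 to -0.84) for Pde6ccpfl1 over Wildtype. Between the mutants it was 0.39 (0.24 to 0.55) in favour of Pde6ccpfl1.

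Much of the Myo6 count came from 1 well position. The well at row D, column 8 (D08) held 660 of the Myo6 counts in Wildtype against 384 in Cnga3-/- and 366 in Pde6ccpfl1. These were 6.62%, 6.17% and 6.64% of all counts in that well, shares whose intervals overlap, and 48.6%, 59.4% and 49.0% of the Myo6 counts of each library. The next highest well held 47, 11 and 25 Myo6 counts, and the median well 12, 3 and 4, so D08 stood apart in every plate. Away from D08 the difference between genotypes was not smaller: without that position the log2 ratio was -1.73 for Cnga3-/- over Wildtype, -1.01 for Pde6ccpfl1 over Wildtype and 0.72 between the mutants. At the 43 positions kept in all plates it was -1.15, -0.82 and 0.33. In the same order of comparisons, the Wildtype well was the higher at 41 of 43 positions against Cnga3-/- and at 40 of 43 against Pde6ccpfl1, and the Pde6ccpfl1 well was higher than the Cnga3-/- well at 32 of 43. These positions share a plate and are not replicates of a genotype.

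**Figure D2:**
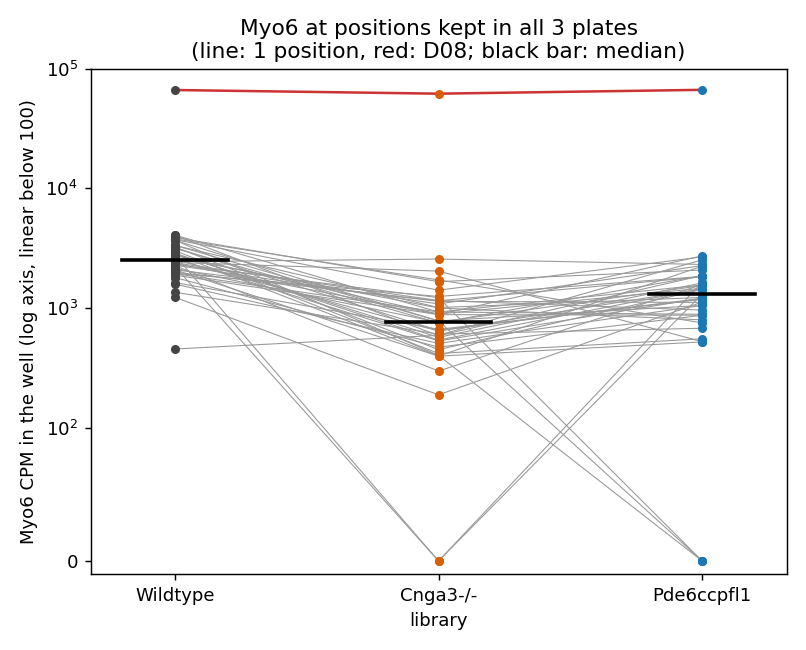
Myo6 CPM in each well (log axis, linear below 100) at the 43 plate positions kept in all 3 plates; each line joins 1 position, the red line is D08 and black bars are medians. D08 is far above all other wells and alike in the 3 libraries, while nearly all other lines run down from Wildtype to Cnga3-/-.

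The median Myo6 level per kept well was 2518 CPM in Wildtype against 781 in Cnga3-/- and 1182 in Pde6ccpfl1. Some Myo6 was counted in 52 of 52 Wildtype wells, 66 of 70 Cnga3-/- wells (94.3%) and 56 of 61 Pde6ccpfl1 wells (91.8%). After each well was thinned to 1400 counts, with shallower wells left out, these shares were 97.9% of 48, 66.2% of 65 and 79.6% of 54 wells. Wells were not assigned to cell types, so no cell type known to lack Myo6 could be set beside these shares. The kept wells had a median of 4895 counts in Wildtype against 4056.5 in Cnga3-/- and 3796 in Pde6ccpfl1.

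Summed without Myo6, the unconventional myosins had 327 counts in Wildtype against 542 in Cnga3-/- and 471 in Pde6ccpfl1. Over Wildtype, the log2 ratio was 0.43 (0.23 to 0.63) in Cnga3-/- and 0.41 (0.21 to 0.62) in Pde6ccpfl1, opposite in sign to the class with Myo6 included (-0.80 and -0.58). The excess was smaller when positions were left out: without each gene's top position the ratios were 0.02 (-0.21 to 0.26) and 0.21 (-0.03 to 0.45), and at the 43 shared positions 0.04 and 0.17. Of its compared genes, Myo15b and Myo1g were 2-fold or more from Wildtype in a mutant.

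Myo15b, a relative of the hair bundle motor Myo15, had 25 counts in Wildtype against 113 in Cnga3-/- and 87 in Pde6ccpfl1. Its log2 ratio over Wildtype was 1.88 (1.24 to 2.57) in Cnga3-/- and 1.69 (1.03 to 2.39) in Pde6ccpfl1. In the mutants its top well was D01, with 56 and 32 counts, or 1.43% and 1.37% of that well. The Wildtype well D01 had been left out by the filter on genes, and held 9 Myo15b counts of 597 (1.51%). Without D01 the log2 ratios were 0.91 (0.21 to 1.65) and 1.04 (0.33 to 1.78), and at shared positions 0.84 and 0.88. Thinning every well to 1400 counts, with D01 of the mutants included, gave 3.02 and 2.87. Myo15b was then found in only 4 of 48 Wildtype wells, so the thinned ratios rest on few Wildtype counts. Myo15b overlaps Recql5 on the opposite strand, which had 6, 4 and 0 counts, and whether counting used strand is not given in the sources used here.

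Myo1g, a class I membrane-linked myosin known from blood cells, had 33 counts in Wildtype against 107 in Cnga3-/- and 39 in Pde6ccpfl1. It was highest in Cnga3-/-, with a log2 ratio of 1.4 (0.83 to 2.01) over Wildtype, while the ratio of Pde6ccpfl1 over Wildtype was 0.13 with an interval that includes 0 (-0.58 to 0.84). Its top well in the mutants was H09, with 43 counts of 1431 (3.00%) in Cnga3-/- and 10 of 1112 (0.899%) in Pde6ccpfl1. The Wildtype well H09, left out by the same filter, held 26 of 841 (3.09%). Leaving out H09 gave 0.66 (0.04 to 1.32) for Cnga3-/- over Wildtype, and using every well gave 0.57. With wells weighted equally it was 2.21, and the Pde6ccpfl1 ratio was -0.74 with every well and 0.93 with equal weights.

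Myo3a, a class III myosin with a kinase domain that works at the tips of actin protrusions, had 42 counts in Wildtype against 59 in Cnga3-/- and 78 in Pde6ccpfl1. It was higher in Pde6ccpfl1 than in Wildtype by a log2 ratio of 0.78 (0.22 to 1.36), and the Cnga3-/- ratio was 0.19 (-0.40 to 0.80). In both mutants its top well was F01, with 30 and 29 counts, a position at which the Wildtype plate has no column. Without F01 the ratio for Pde6ccpfl1 over Wildtype was 0.18 (-0.44 to 0.81). That for Cnga3-/- over Wildtype changed sign to -0.78 (-1.52 to -0.07). Leaving out F01 took counts from the mutants only. The top well of Wildtype, C12 with 13 of its 42 counts, stayed in. The Cnga3-/- ratio was also below 0 without the 5 deepest wells of each library (-0.52). Its class partner Myo3b had 8, 6 and 16 counts.

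Myo7a, the motor mutated in Usher syndrome that moves opsin in photoreceptors and melanosomes in the pigment epithelium, had 61 counts in Wildtype against 44 in Cnga3-/- and 47 in Pde6ccpfl1. Its level per length was 26.1, 15.3 and 18.6 CPM per kilobase. The order of the 3 libraries was that of Myo6, with a log2 ratio over Wildtype of -0.77 (-1.36 to -0.19) for Cnga3-/- and -0.49 (-1.07 to 0.08) in Pde6ccpfl1. Its top well was E11 in each plate, with 15, 16 and 15 counts. Without E11 the ratios were -1.02 and -0.64, and at shared positions -0.59 (-1.23 to 0.03) and -0.33. Pigment epithelium markers, 12 in all, were at 6.84, 4.78 and 3.57 CPM per kilobase in the same order of libraries, most of it from Mitf (52, 38 and 22 counts), with Rpe65 at 1 count in each. Their part in the Myo7a values was not tested. The levels of other marker lists were 6.93, 13.3 and 11.1 for rods, 4.14, 2.65 and 2.20 for Müller glia, 2.78, 3.09 and 3.16 for bipolar cells and 6.02, 4.15 and 4.86 for endothelium.

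Myo18a, a PDZ-domain myosin of the Golgi, had 30, 31 and 43 counts and shared its top position D08 with Myo6 in each plate (8, 15 and 14 counts there). Both ratios over Wildtype had intervals that include 0: -0.25 (-1.02 to 0.52) in Cnga3-/- and 0.41 (-0.30 to 1.13) in Pde6ccpfl1. After thinning they were -1.24 and 1.27, with Myo18a found in only 7 of 48, 3 of 65 and 11 of 54 wells. Myo19, the motor of mitochondria, had 21, 20 and 23 counts, of which 12, 15 and 8 were at D06. It did not pass the filter for comparison.

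Myo18b, known from the assembly of muscle sarcomeres, had 2 counts in Wildtype against 17 in Cnga3-/- and 44 in Pde6ccpfl1. It passed the filter only in the comparison of the mutants, where Pde6ccpfl1 was higher by a log2 ratio of 1.56 (0.72 to 2.46), and by 1.56 as well without its top position F01. Over the 2 counts of Wildtype the log2 ratio was 4.35 (2.41 to 7.44) in Pde6ccpfl1 and 2.79 (0.72 to 5.95) in Cnga3-/-. At shared positions, which leave out F01, these were 3.73 (1.72 to 6.85) and 2.18 (-0.10 to 5.43). The antisense gene 1700095B10Rik, which overlaps Myo18b, had 48, 109 and 16 counts in the same libraries. Its part in the Myo18b counts was not tested.

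The unconventional myosins best known from migrating cells, photoreceptors or hair cells were otherwise sparse, with lower bounds that were not above the olfactory receptor level except for Myo3b in Pde6ccpfl1. Myo10, the filopodium motor, had 12, 14 and 9 counts in Wildtype, Cnga3-/- and Pde6ccpfl1. Myo5a, the organelle carrier, had 10, 12 and 10. Myo9a, whose tail carries a GTPase-activating domain, had 4, 17 and 12, and Myo15 had 2, 4 and 3 (0.574, 0.934 and 0.797 CPM per kilobase, all below the olfactory receptor level). At these counts, differences between libraries were not detectable for Myo10, Myo5a and Myo15. The other unconventional members, among them Myo5c, Myo5b, Myo7b and Myo1c, ranged from 0 to 22 counts per library.

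Muscle heavy chains were lower in both mutants than in Wildtype, and the sum rested on the cardiac pair. The class had 238 counts in Wildtype against 119 in Cnga3-/- and 100 in Pde6ccpfl1. Its log2 ratio over Wildtype was -1.30 (-1.63 to -0.97) in Cnga3-/- and -1.36 (-1.71 to -1.02) in Pde6ccpfl1, and -0.07 (-0.46 to 0.33) between the mutants. Without top positions the ratios over Wildtype were -1.25 and -1.41, and at shared positions -1.23 and -1.25. When wells were weighted equally, as a mean of the CPM per well, they were -0.89 and -0.60. In Pde6ccpfl1 the ratio was -0.72 after thinning and -1.95 under a stricter well filter.

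Both genes of the pair were lower in both mutants, Myh7 by more in Cnga3-/- and Myh6 by more in Pde6ccpfl1. Myh7 had 114 counts in Wildtype against 14 in Cnga3-/- and 40 in Pde6ccpfl1. Its log2 ratio over Wildtype was -3.32 (-4.24 to -2.52) in Cnga3-/- and -1.62 (-2.18 to -1.09) in Pde6ccpfl1. Myh6 had 87, 70 and 24 counts, with log2 ratios of -0.61 (-1.09 to -0.14) and -1.97 (-2.69 to -1.30). Between the mutants, Myh7 was higher in Pde6ccpfl1 by 1.70 (0.79 to 2.69) and Myh6 lower by -1.36 (-2.09 to -0.67). The Myh6 interval of Cnga3-/- over Wildtype included 0 without the top position (-0.57, -1.21 to 0.05) and at shared positions (-0.48, -0.99 to 0.03). Between the mutants the signs were the same without the top position (2.25 and -1.48) and at shared positions (1.58 and -1.26). With wells weighted equally, the Pde6ccpfl1 ratios over Wildtype were -0.50 for Myh7 and -0.92 for Myh6, and that of Myh6 in Cnga3-/- was -0.09. The stricter well filter gave -2.65 for Myh7 and -2.99 for Myh6 in Pde6ccpfl1.

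Both genes had their top well at C04 in all 3 plates. Myh7 had 49, 9 and 19 counts there, and Myh6 had 38, 29 and 11. At the 43 shared positions, Myh7 CPM was higher in Wildtype than in Cnga3-/- at 28 and lower at 1, with neither library having a count at 14. Against Pde6ccpfl1 it was higher in Wildtype at 26 and lower at 9. Myh7 was counted in 65.4% of Wildtype wells, 7.14% of Cnga3-/- wells and 29.5% of Pde6ccpfl1 wells, and after thinning in 39.6%, 6.15% and 12.96%.

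**Figure D3:**
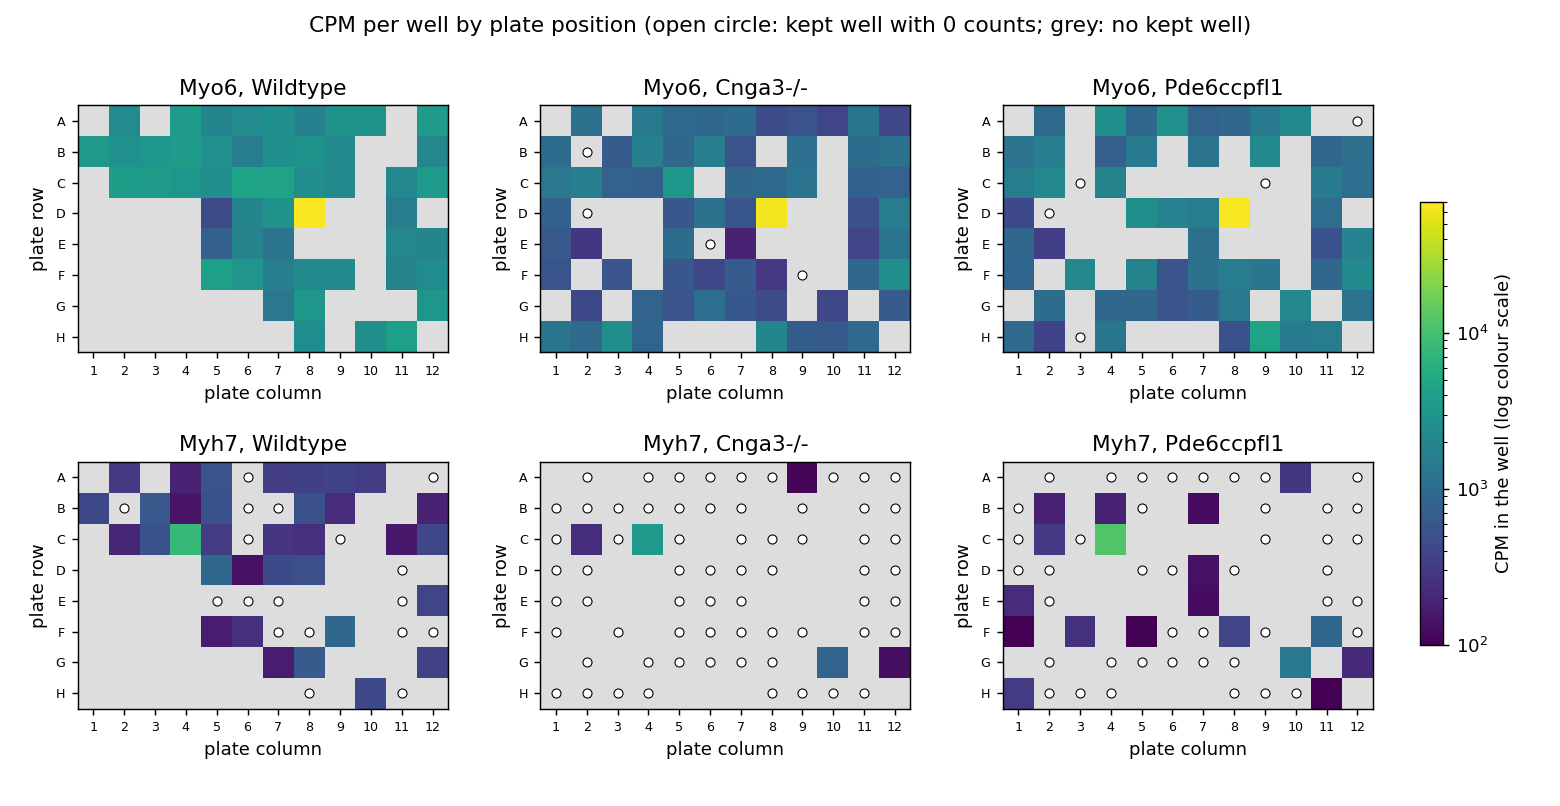
CPM per kept well of Myo6 (top) and Myh7 (bottom) by plate row and column in the 3 plates, on a log colour scale; open circles are kept wells with 0 counts and grey marks positions with no kept well. The brightest well is D08 for Myo6 and C04 for Myh7 in every plate, and most Cnga3-/- wells have no Myh7 count.

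The remaining muscle heavy chains held few counts. Myh1, a fast heavy chain of skeletal muscle, had 7, 6 and 10 counts in Wildtype, Cnga3-/- and Pde6ccpfl1. Myh11, the smooth muscle heavy chain, had 2, 9 and 5, and the skeletal Myh2 and the embryonic Myh3 had 7, 3 and 6 and 6, 6 and 4. Myh8, Myh7b, Myh15, Myh4 and Myh13 had between 0 and 8 counts per library. No heavy chain other than Myh6 and Myh7 had a lower bound above the olfactory receptor level in any library. The lower bound of Myh7 was not above it in Cnga3-/-.

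Sarcomere genes outside the family were set beside these heavy chains. The 33 markers of striated muscle summed to 1469 counts in Wildtype against 1352 in Cnga3-/- and 1168 in Pde6ccpfl1 (16.4, 12.3 and 12.1 CPM per kilobase), of which the giant sarcomere protein gene Ttn gave 860, 711 and 537. Ryr1, the calcium release channel of muscle, had 191, 192 and 177 counts. Troponin genes that define muscle were at or near 0: Tnnc2 and Tnni2 had no count in any library, Tnni3 had 1 in Wildtype only, and the creatine kinase gene Ckm had 0, 2 and 0. The summed ratio over Wildtype was 0.749-fold (0.695 to 0.807) in Cnga3-/- and 0.736-fold (0.681 to 0.795) in Pde6ccpfl1. Ttn, the largest part of the sum, had log2 ratios of -0.57 in Cnga3-/- and -0.79 in Pde6ccpfl1. The median log2 ratio of the compared markers was -0.27 and -0.03, where that of all compared genes was -0.32 and -0.16. Of 5 and 7 compared markers, 0 were 2-fold apart, which is too few genes to read against the shares over all compared genes. Smooth muscle and pericyte markers were at 5.44, 5.47 and 5.30 CPM per kilobase, led by Smtn (36, 34 and 46 counts), with Acta2 and Tagln at 0 in all libraries.

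Non-muscle myosin II heavy chains, the contractile motors linked to cell shape and nuclear movement, were counted too sparsely to compare gene by gene. As a class they had 33 counts in Wildtype against 40 in Cnga3-/- and 20 in Pde6ccpfl1. Log2 ratios were -0.02 (-0.72 to 0.69) for Cnga3-/- over Wildtype, -0.83 (-1.71 to 0.01) for Pde6ccpfl1 over Wildtype and -0.81 (-1.67 to -0.01) for Pde6ccpfl1 over Cnga3-/-. The first of these was 0.12 with median-of-ratios factors and 0.06 with TMM factors. The last was -0.79 (-1.67 to 0.05) without top positions and -0.69 (-1.65 to 0.22) at shared positions. Myh10 (heavy chain IIB) had 18, 20 and 6 counts, Myh9 (IIA) 13, 13 and 9, and Myh14 (IIC) 2, 7 and 5. The lower class sum in Pde6ccpfl1 thus lay mostly in Myh10. Myh14 overlaps the antisense gene 2310016G11Rik, which had 74, 77 and 58 counts.

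**Figure D4:**
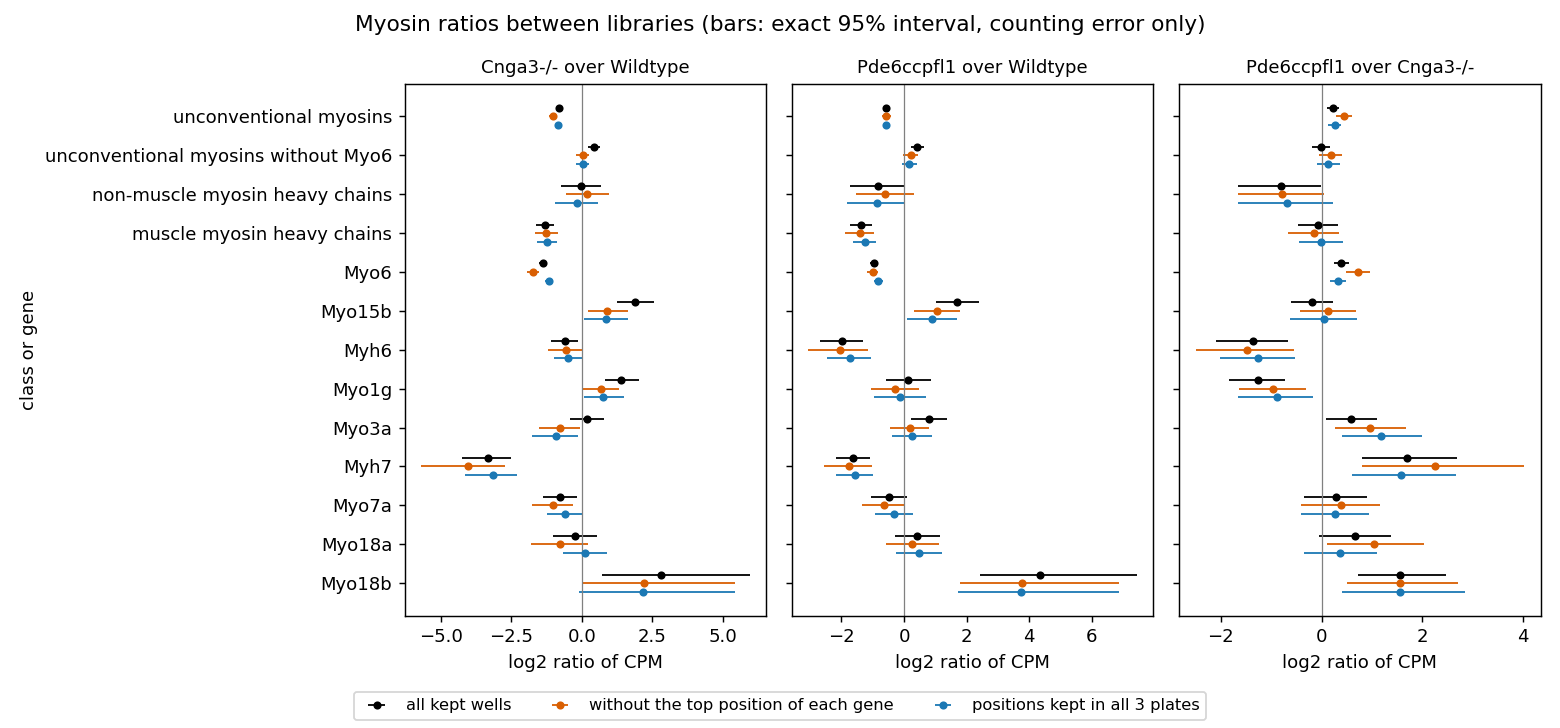
Log2 ratio of CPM with exact 95% intervals (counting error only) for the 3 classes, the unconventional class without Myo6 and each compared member, in the 3 comparisons, from all kept wells (black), without the top position of each gene (orange) and at the 43 shared positions (blue). Myo6, Myh6 and Myh7 points lie below 0 in both comparisons with Wildtype, though the Myh6 intervals of Cnga3-/- reach past 0 when positions are left out. The Myo15b values over Wildtype, and that of Myo1g in Cnga3-/-, are nearer 0 when positions are left out.

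The partners of the motors were counted in lists. The 16 light chain genes, which bind and regulate the heavy chain neck, had 40 counts in Wildtype against 80 in Cnga3-/- and 114 in Pde6ccpfl1, a sum that was 1.63-fold (1.10 to 2.44) and 2.64-fold (1.83 to 3.88) that of Wildtype. Myl9, a regulatory light chain of smooth muscle and non-muscle myosin, gave 3, 29 and 50 of these. It was the only light chain compared, in Pde6ccpfl1, with a log2 ratio over Wildtype of 3.95 (2.32 to 6.27), or 3.13 without its top position. The 29 genes listed as regulators of non-muscle myosin II had 2176, 2134 and 2119 counts. Nearly all were from Unc45b, a myosin-folding chaperone of muscle, with 1937, 1836 and 1902, so the sum does not describe the other genes listed.

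With Unc45b included, 4 genes of the regulator list were compared in either comparison with Wildtype. In Cnga3-/- none was 2-fold apart, the log2 ratios being 0.78 for the myosin phosphatase subunit Ppp1cb, -0.09 for the kinase Cdc42bpa, -0.16 for the light chain kinase Mylk2 and -0.37 for Unc45b. In Pde6ccpfl1 the kinase Cit was higher by 1.29 (0.37 to 2.29) and Cdc42bpa lower by -2.23 (-3.14 to -1.40), or -1.64 without its top position, while Mylk2 and Unc45b were at 0.23 and -0.14.

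The 29 adaptors that tie unconventional myosins to cargo or to hair bundle links had 294, 353 and 305 counts. None of the compared adaptors was 2-fold from Wildtype. In Cnga3-/- the log2 ratios were 0.41 for Pcdh15 and -0.84 for Cdh23, which form the tip links of hair bundles, 0.33 for Tom1l2, an adaptor of Myo6, and -0.62 for the actin bundler Espn. In Pde6ccpfl1 Espn was at 0.12 and Cdh23 at -0.20. The 12 actin, tropomyosin and alpha-actinin genes had 138, 130 and 127 counts. Of the 2 compared, the skeletal actin Acta1 (63, 71 and 76 counts) was at -0.12 in Cnga3-/- and 0.16 in Pde6ccpfl1. The alpha-actinin Actn4 (51, 26 and 32 counts) was at -1.27 (-2.01 to -0.56) and -0.78 (-1.47 to -0.12), and at -0.95 and -0.07 without its top position. The abundant actins of most cells were sparse here, with 5, 16 and 7 counts for Actb.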

How the data were processed

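The deposited table holds whole-number counts per gene and well, which per the submitters' processing notes came from featureCounts (no version given). The notes list GRCh38, a human build, while 98.1% of the symbols are in the mouse annotation GENCODE M21 (GRCm38), which was used here for exon length, coordinates and sequences. The aligner, the use of molecular identifiers and the strand setting are not given in the sources used here. All 208 wells were mapped to a library by column name, with 0 columns left unmapped. No doublet caller was run, because each well was sorted to hold 1 cell.

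Counts of the 183 kept wells were summed per library, scaled to CPM and, between genes, divided by kilobases of exon. Intervals are exact Poisson for a level, exact Clopper-Pearson for a share, and exact conditional binomial for a ratio, all at 95%. Each library is 1 sample, so no p-value was computed. The interval script was tested on simulated Poisson counts only. These lack the pile-up of a gene's counts in single wells seen here, so the test does not cover it. Compared genes held 50 or more counts in both libraries together and were found in 20% or more of the kept wells of either. Scaling alternatives used edgeR 4.0.16 and DESeq2 1.42.0. The members and lists were chosen with earlier results of these data known. Named with values were the 4 members of each class with the most counts, every compared member, members known from photoreceptors, hair cells or contractility, and of each pathway list the 2 highest and 2 lowest compared genes in either comparison with Wildtype. The alternatives without top positions and at shared positions were chosen after seeing the data. Olfactory receptor genes (symbols Olfr followed by digits) gave the reference level. Some items are not reported here by name.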

Additional observations from a re-analysis of the deposited data

Results flagged for a closer look

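Myo6 was also counted in wells that the filter on genes and mitochondrial counts left out. The 9 Wildtype wells left out held 26 Myo6 counts of 7174 (3624 CPM), and the 10 Pde6ccpfl1 wells left out held 7 of 8245 (849 CPM). Both are above the floor of 3 counts set for a count of 0. The 6 Cnga3-/- wells left out held 1 of 4749. The order of the 2 mutants and Wildtype in these wells was not tested.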

How the results depend on the processing

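No paired analysis was possible because each genotype has 1 library. No ratio whose interval excluded 0 changed sign in the settings run here. Of the summary values, 156 stayed within the main interval (class ratios) or within 1.5 times (gene counts) and 48 moved; of single members, 229 stayed and 46 moved. The class ratios that moved follow, as log2 over Wildtype unless stated. With wells weighted equally, unconventional myosins were at -0.39 (Cnga3-/-) and -0.26 (Pde6ccpfl1), the same without Myo6 at 0.88 and 0.70, and muscle heavy chains at -0.89 and -0.60. Thinned to 1400 counts, they were at -0.52 and -0.30, without Myo6 at 0.82 and 0.81, and muscle in Pde6ccpfl1 at -0.72. The stricter filter gave muscle -1.95 in Pde6ccpfl1 and -0.67 between the mutants. Unconventional myosins in Cnga3-/- were at -0.66 with median-of-ratios factors and -0.68 without mitochondrial and the top 20 genes. Those 2 scalings shifted the median of all genes there by 0.14 and 0.11. Without the fullest well of the class they were at -0.68 and -0.40. Without each gene's top position they were at -1.02 in Cnga3-/- and 0.45 between the mutants, and without Myo6 at 0.02, 0.21 and, between the mutants, 0.18. At shared positions, without Myo6, they were at 0.04 and 0.17.

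Numbers of genes at least 2-fold higher and lower also moved. In Cnga3-/- over Wildtype (193 and 202) they were 50 and 44 thinned, 78 and 88 at shared positions, 1248 and 1166 with a filter of 10 counts, 35 and 35 with 200 counts, and 344 lower without top positions. In Pde6ccpfl1 over Wildtype (163 and 244) they were 41 and 35 thinned, 80 and 160 at shared positions, 1130 and 1238 with 10 counts and 35 and 39 with 200. Between the mutants (109 and 158) they were 27 and 27 thinned, 795 and 1111 with 10 counts, 28 and 21 with 200, and 191 higher without top positions. With median-of-ratios factors the Cnga3-/- split was 219 and 140, against 193 and 202. With 1 library per genotype, plate, tag and genotype cannot be told apart, and members under 20 counts allow no comparison.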
